A study of Dendrobium officinale with 6 samples.

Results

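Genes that differed at least 2-fold between MeJA libraries 2 and 3 were picked out of a leaf transcriptome of the orchid Dendrobium officinale. A gene was included when the 3 MeJA libraries averaged at least 50 TPM and the highest control was at most 1.5 times the lowest. In addition, its lowest MeJA value had to be under 2 times the highest control, and its highest MeJA value above 0.5 times the lowest control. TPM is a transcript level per unit of length, expressed as a share of all transcripts of its library. The conditions were met by 82 of 60597 genes. In 32 of them MeJA library 3 was above MeJA library 2, and in 50 MeJA library 2 was above MeJA library 3. The same 6 values chose the members, so their levels, folds and order are given as a description, with no test.

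The MeJA group held 3 libraries from leaves sprayed with 100 µM methyl jasmonate in ethanol and harvested at 24 h. The control group held 3 libraries from leaves that received the ethanol solvent alone, for which no harvest time is given. All plants were 6 months old. Nothing in the labels ties the libraries to single plants, so the spread within a group, on which any SD, SE or p rests, may be technical.

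Methyl jasmonate is the volatile methyl ester of jasmonic acid, a plant hormone of defence and wounding. In flowering plants such as Arabidopsis it is turned into a conjugate of jasmonic acid with isoleucine, which brings the receptor COI1 together with JAZ repressors. The repressors are then degraded, and transcription factors such as MYC2 are freed to act on genes of defence and of specialised metabolism. The study asked which genes change along with alkaloid accumulation under MeJA. Its identifiers come from a de novo assembly and carry no gene names, so no role can be given to a member, and members are called by rank of their mean MeJA level. For the same reason leaf markers could not be read. In bulk leaf RNA, fewer cells of a type and less RNA per cell cannot be told apart.

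Among the 3180 genes that averaged 50 TPM or more under MeJA, 97 (3.05%) had MeJA library 3 at least 2-fold above MeJA library 2, and 93 (2.92%) had the reverse. Of the 97, controls were too spread in 40, and in 25 more all MeJA libraries were at least 2-fold above the highest control, which left the 32. Of the 93, controls were too spread in 32, in 5 all MeJA libraries were at least 2-fold above the highest control, and in 6 all were at or under 0.5 times the lowest control, which left the 50. In the 3214 genes that averaged 50 TPM or more in controls, control library 3 was at least 2-fold above control library 2 in 0.716% and control library 2 above control library 3 in 1.09%. With the groups exchanged, so that the 3 MeJA libraries had to lie close and control libraries 2 and 3 apart, the rule found 15 genes against the 82.

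The other pairs of MeJA libraries gave fewer genes. MeJA libraries 1 and 2 gave 21, each with library 1 the higher, and MeJA libraries 1 and 3 gave 4, each with library 1 the higher. All of these were already among the 82. The 21 belong to the 32 genes, since library 1 was below library 2 at each of the 50. At these 21, library 2 was thus at least 2-fold below both other MeJA libraries. The 4 belong to the 50 genes, and there library 3 was at least 2-fold below both others.

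The balance of the directions depended on the scaling of the libraries. After division by median-ratio size factors, which are 1.16 times as large in MeJA library 2 as in MeJA library 3, the rule found 59 genes with MeJA library 3 the higher and 26 with MeJA library 2 the higher. Of the 32 and the 50, 27 and 24 were found again. All 82 members kept their direction under the size factors, but the fold of 2 was still reached by 32 of the 32 and by only 27 of the 50.

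The plot of each member in each library shows that the 32 genes with MeJA library 3 the higher reached far higher levels than the 50 others. Their MeJA means were 50.3 to 7479 TPM with a median of 324.7 TPM, against control means of 6.98 to 1361 TPM with a median of 131 TPM. Relative to the control mean, the median member stood at 2.62 in MeJA library 1, 1.32 in MeJA library 2 and 3.38 in MeJA library 3. Libraries 1 and 3 were above the highest control at 32 of 32 members. MeJA library 2 was above the highest control at 20, inside the control range at 6 and below the lowest control at 6.

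**Figure D1:**
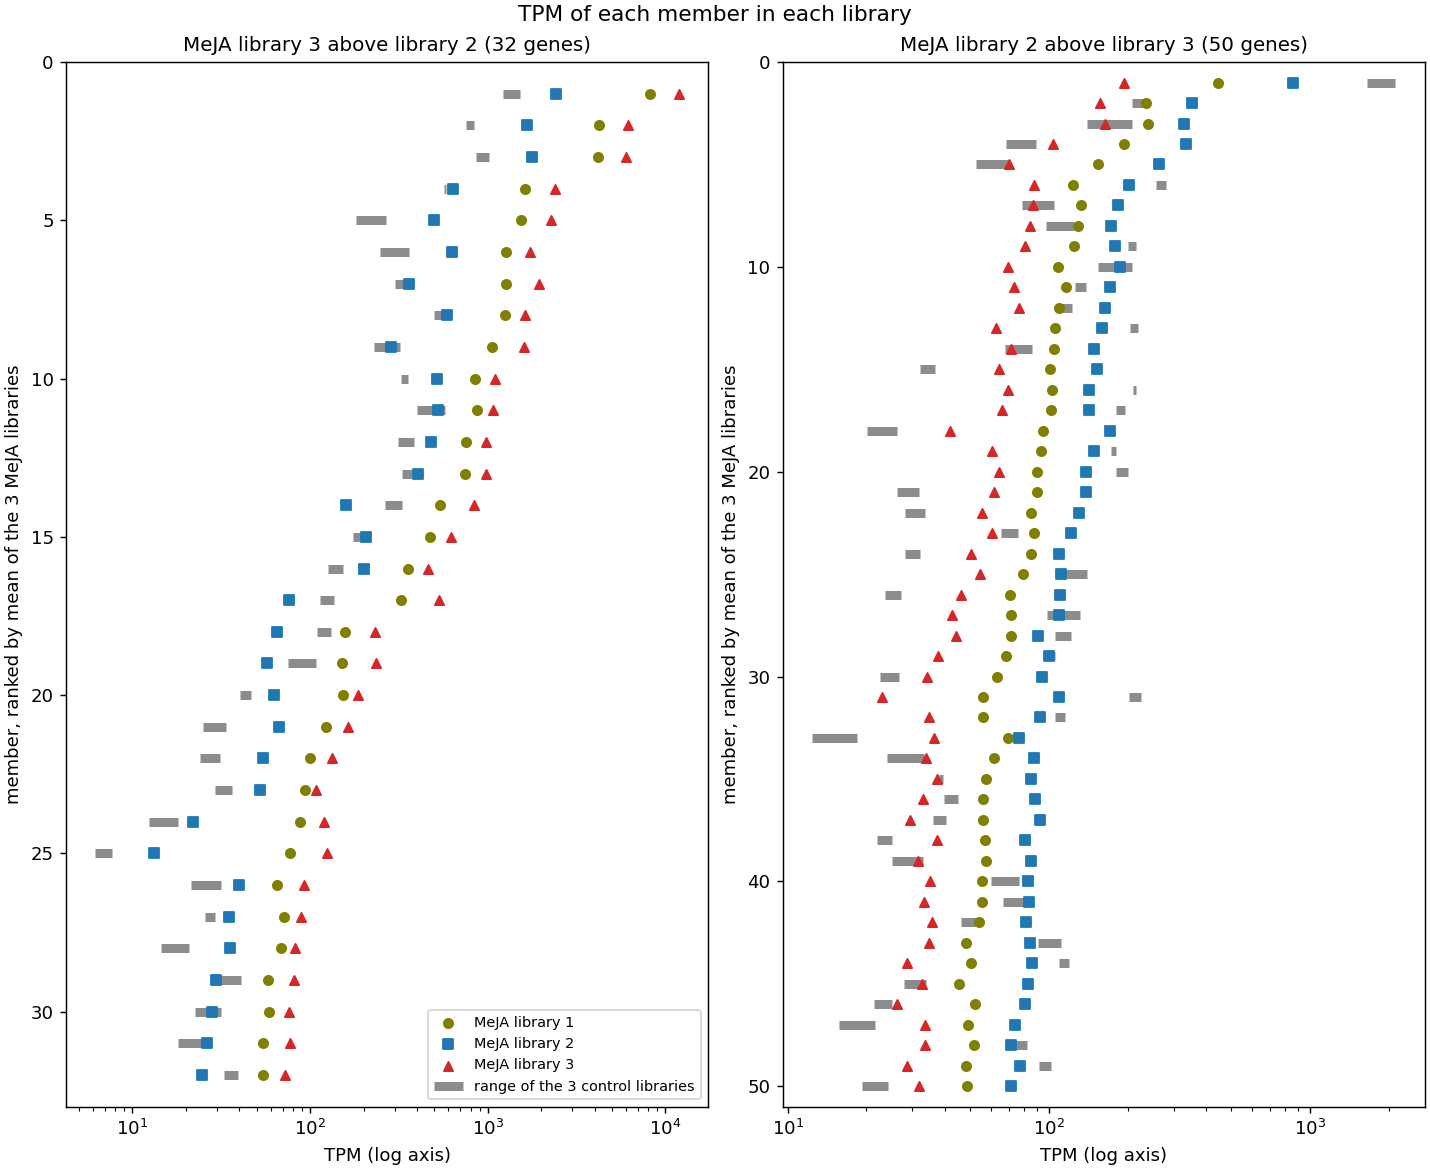
TPM of the 82 members in each library on a log axis, ranked by the mean of the 3 MeJA libraries, with MeJA libraries as symbols and the range of the 3 controls as a grey bar. In the left panel (32 genes) library 2 lies at or near the controls while libraries 1 and 3 lie to the right, and in the right panel (50 genes) the grey bars fall on either side of the MeJA symbols.

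The gene with the highest MeJA mean was TRINITY_DN13898_c0_g1. It had 8144, 2412 and 11882 TPM in MeJA libraries 1, 2 and 3, against 1332, 1527 and 1224 TPM in control libraries 1, 2 and 3. Every MeJA library was above every control, but library 3 was 4.93 times library 2. In rank among all genes it was 2, 14 and 2 in the MeJA libraries, against 47, 36 and 50 in the controls. Its log2 fold change, MeJA over control on the log2(TPM + 1) scale, was 2.18 ± 0.56 (SE of the limma fit, n = 3 each).

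Next in level, the gene at rank 2 had 4241, 1658 and 6183 TPM in the MeJA libraries, against 783, 836 and 752 TPM in the controls. At rank 3 the values were 4174, 1777 and 5994 TPM under MeJA and 926, 1010 and 855 TPM in controls. In these 3 most abundant members MeJA library 2 stood closest to the controls and MeJA library 3 farthest above them. Together they made up 1.66%, 0.585% and 2.41% of all TPM in MeJA libraries 1, 2 and 3, against 0.304%, 0.337% and 0.283% in the controls.

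A steep difference was also found at rank 5, with 1534, 498 and 2284 TPM in the MeJA libraries against 221, 266 and 182 TPM in the controls. At rank 7, MeJA library 2 lay inside the control range, with 1272, 359.6 and 1935 TPM under MeJA against 334, 382 and 299 TPM in controls. Rank 9 was alike, with 1051, 287 and 1607 TPM under MeJA and 266, 319 and 230.3 TPM in controls. For ranks 7 and 9, library 2 alone would show no difference from the controls, and library 3 alone a level several times theirs.

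The largest ratio between the libraries was that of TRINITY_DN10406_c0_g1, a gene low in controls. It had 76.9, 13.2 and 124 TPM in MeJA libraries 1, 2 and 3, against 7.04, 6.19 and 7.71 TPM in the controls. Library 3 held 9.37 times the value of library 2, and 17.8 times the control mean, while library 2 held 1.90 times the control mean. The groups did not overlap, and the log2 fold change was 2.70 ± 0.75 (SE of the limma fit, n = 3 each). The gene was not called in that fit (limma adjusted p of 0.0509). Over the 32 genes the ratio of library 3 to library 2 had a median of 2.92 and a lowest value of 2.03.

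At 6 members MeJA library 2 was below every control while libraries 1 and 3 were above every control, so the sign of the difference depended on the library. The most abundant of them, at rank 14, had 539, 159 and 838 TPM in the MeJA libraries, against 314, 265 and 329 TPM in the controls. The one at rank 17 had 324, 76.1 and 532 TPM under MeJA, against 120, 113 and 137 TPM in controls. On the log2 scale the smallest mean difference among the 32 was at rank 18, where 158, 65.2 and 233 TPM under MeJA stood against 129, 110 and 131 TPM in controls, a log2 fold change of 0.13 ± 0.43 (SE of the limma fit, n = 3 each). Here the spread of the MeJA libraries exceeded the difference between the groups.

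The summed level of the 32 genes followed the same order of libraries. They made up 3.08%, 1.20% and 4.41% of all TPM in MeJA libraries 1, 2 and 3, against 0.815%, 0.875% and 0.770% in the controls. The means were 2.90% ± 1.61 under MeJA and 0.820% ± 0.053 in controls (SD, n = 3 each). Every MeJA library was above every control in this sum, and the lowest was library 2.

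**Figure D2:**
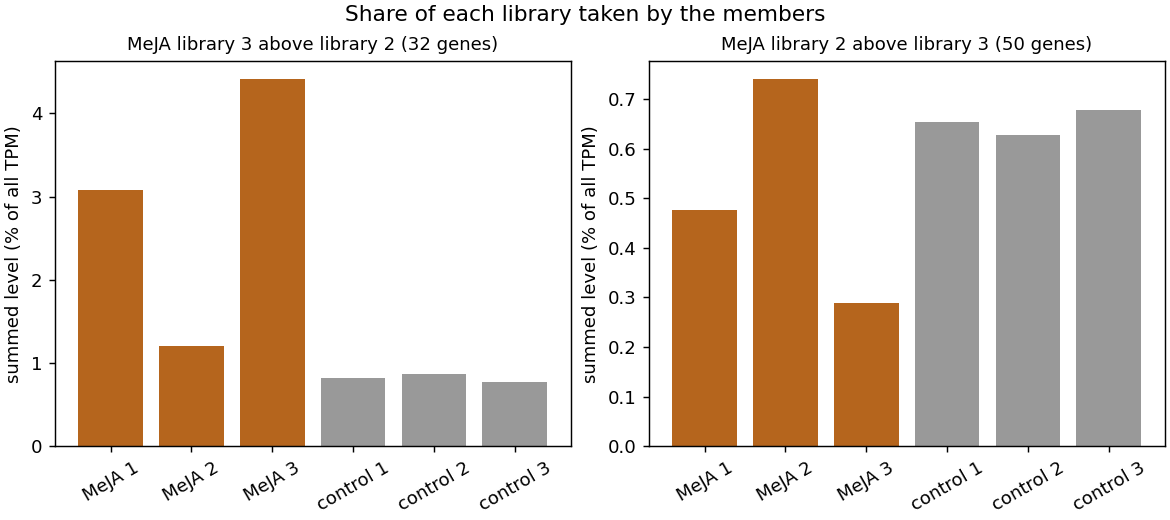
Share of all TPM taken by the 32 genes with MeJA library 3 the higher (left) and the 50 genes with MeJA library 2 the higher (right), one bar per library, MeJA in brown and controls in grey. On the left the MeJA bars run from 1.20% to 4.41% and lie above the controls, and on the right they run from 0.289% to 0.739% on either side of the controls.

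The 50 genes with MeJA library 2 the higher were lower in level and smaller in ratio. Their MeJA means were 50.6 to 500.1 TPM with a median of 78.8 TPM, against control means of 15.6 to 1902 TPM with a median of 76.2 TPM. Library 2 was 2.01 to 4.76 times library 3, with a median of 2.35. They fell into 3 classes by where the controls lay. The classes were formed after the values were seen.

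In 15 of the 50 genes every MeJA library was above every control, and here library 2 was the farthest from the controls. Relative to the control mean, the median of the class was 2.65 in library 1, 4.26 in library 2 and 1.69 in library 3. The gene at rank 18 had 94.7, 172 and 41.7 TPM in the MeJA libraries, against 23.4, 26.1 and 20.01 TPM in the controls. At rank 4 the levels were 193, 336 and 103 TPM under MeJA and 71.6, 68.3 and 89.1 TPM in controls. Library 3 was still above the controls in these genes, but by the smallest margin.

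In 16 of the 50 genes every MeJA library was below every control, and here library 3 was the farthest from the controls. The class medians relative to the control mean were 0.5002 in library 1, 0.786 in library 2 and 0.334 in library 3. The most abundant was TRINITY_DN19902_c0_g2, with 445, 861 and 194 TPM in MeJA libraries 1, 2 and 3, against 1934, 1647 and 2124 TPM in the controls. It ranked 276, 84 and 731 among all genes in the MeJA libraries, against 20, 27 and 16 in the controls, and its log2 fold change was -2.17 ± 0.50 (SE of the limma fit, n = 3 each). All MeJA libraries were below the controls, with library 3 at 0.102 and library 2 at 0.453 of the control mean.

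The largest ratio of the 50, 4.76, belonged to TRINITY_DN18620_c2_g1 of the same class. It had 55.9, 110 and 23.0 TPM in the MeJA libraries, against 215, 203 and 225 TPM in the controls, with a log2 fold change of -2.02 ± 0.50 (SE of the limma fit, n = 3 each). A smaller ratio was that at rank 16, with 103, 142 and 69.8 TPM under MeJA against 215, 210.4 and 215 TPM in controls. There the controls lay within a few TPM of each other and each MeJA library was clearly below them.

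In the remaining 19 genes the MeJA libraries overlapped the controls or stood on either side of them. The one at rank 2 had 235, 352 and 157 TPM in the MeJA libraries, against 209, 234 and 208 TPM in the controls, so that library 2 was above and library 3 below every control. At rank 11, libraries 1 and 3 were below and library 2 above the controls, with 117, 171 and 73.2 TPM under MeJA against 132, 126 and 139 TPM in controls. At rank 37 the ratio was larger, with 55.7, 92.2 and 29.4 TPM under MeJA against 37.2, 36.1 and 40.3 TPM in controls. At 10 of the 19 genes MeJA library 2 was above and MeJA library 3 below every control. At the others library 2 or library 3 lay inside the control range.

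The 50 genes summed to 0.476%, 0.739% and 0.289% of all TPM in MeJA libraries 1, 2 and 3, against 0.654%, 0.627% and 0.677% in the controls. The means were 0.502% ± 0.226 under MeJA and 0.653% ± 0.025 in controls (SD, n = 3 each), and library 2 was above every control while libraries 1 and 3 were below. The groups differed by less than the SD of the MeJA libraries.

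The plot of ratios to the control mean sets MeJA library 3 against MeJA library 2. Library 3 lay farther from the control mean than library 2, on the log2 scale, at 32 of the 32 genes and at 23 of the 50, and library 2 lay farther at the other 27 of the 50. Where all MeJA libraries lie on the same side of the controls, the direction of the choice fixes which is farther. Under the size factors, the members with all MeJA libraries above all controls were 23 of the 32 and 20 of the 50, against 20 and 15 in the values as deposited. Those with all MeJA libraries below all controls were 14 of the 50, against 16 as deposited.

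**Figure D3:**
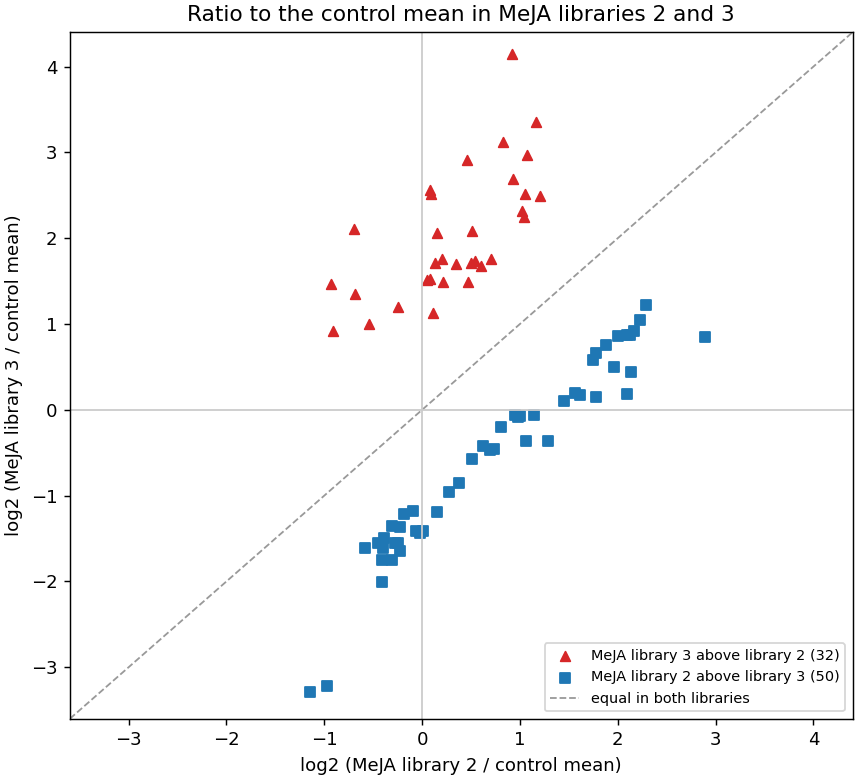
Log2 ratio to the control mean in MeJA library 3 (vertical) against MeJA library 2 (horizontal), one symbol per member, with red triangles for the 32 and blue squares for the 50 genes and a dashed line where both libraries are equal. The triangles all lie above 0 on the vertical axis, and the squares run from below 0 in both libraries to above 0 in both.

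Full separation of the groups, with every MeJA library above every control, was found in 20 of the 32 and 15 of the 50 genes, where 11.8% of all tested genes showed it. Separation with every MeJA library below every control was found in none of the 32 and 16 of the 50, where 27.9% of all tested genes showed it. The rule limits how far the groups can part, so nothing is read from these counts. The median log2 fold change, MeJA over control, was 1.20 for the 32 genes (range 0.13 to 2.70) and 0.14 for the 50 genes (range -2.17 to 1.89), beside -0.17 over all 55498 genes tested. The median SE was 0.37 and 0.29 on this scale, beside 0.28 over all genes.

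In the limma fit over the whole table, all 82 members passed the filter of 1 TPM on low values, and 14 of the 32 were called higher under MeJA and none lower (adjusted p under 0.05), all 32 having a positive fold change. Of the 50, 11 were called higher and 5 lower. Over all genes tested, 6.15% were called higher and 12.6% lower, 18.7% in either direction. Under the size factors this balance turned, with 8.09% of all genes higher and 6.74% lower, while 13 of the 32 were called higher, and 14 of the 50 higher and 3 lower. The rule used the same contrast, so these calls describe the members and support nothing.

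The calls among the members moved with nearly every library left out. Those over all genes stayed within 1.5 times without MeJA library 2 or MeJA library 3, and fell beyond that without any of the other libraries. Without MeJA library 1, 1 of the 32 and 2 of the 50 were called, beside 8.10% of all genes in that fit. Without MeJA library 2 the counts were 31 of the 32 and 29 of the 50, beside 21.5% of all genes, and without MeJA library 3 they were 9 and 23, beside 13.5%. Without control library 1, 2 or 3, the counts were 1, 5 or 3 of the 32 and 2, 4 or 2 of the 50, beside 7.81%, 11% or 10.3% of all genes. In the 50 the balance of directions turned with the library left out. It was 10 higher and 19 lower without MeJA library 2, and 19 higher and 4 lower without MeJA library 3. The rule picked the genes by these same libraries, so these counts too are a description. With the library number as a block, 7 of the 32 and 11 of the 50 were called, beside 10.4% of all genes.

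At 82 of 82 members MeJA library 1 lay between libraries 2 and 3, as the plot of its place shows. With library 2 set to 0 and library 3 to 1, its median place was 0.58 for the 32 genes (quartiles 0.56 and 0.62, range 0.48 to 0.74). For the 50 genes the median was 0.58 as well (quartiles 0.54 and 0.62, range 0.16 to 0.75). The lowest place, 0.16, belonged to the gene at rank 33 of the 50, with 69.9, 76.5 and 36.3 TPM under MeJA against 12.4, 16.1 and 18.4 TPM in controls. Choosing genes by a wide gap between libraries 2 and 3 in itself favours a middle place for library 1. Whether library 1 is independent of libraries 2 and 3 was not tested. If it is not, n = 3 overstates the number of separate libraries, and the SDs, SEs and limma calls are too favourable. Among the 2515 genes that met the other conditions but not the fold of 2, library 1 was in the middle at 72.2%.

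**Figure D4:**
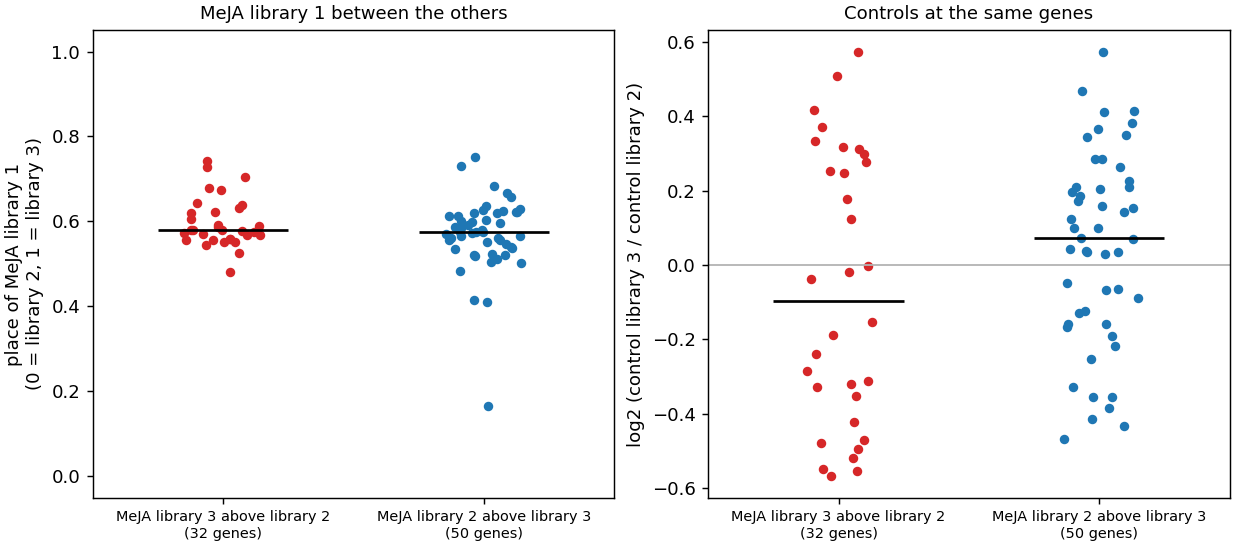
Left, the place of MeJA library 1 with library 2 set to 0 and library 3 to 1. Right, the log2 ratio of control library 3 to control library 2 at the same genes. Points are members and bars are medians, 0.58 in both directions on the left and -0.10 (32 genes) and 0.07 (50 genes) on the right.

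The rule held the controls within 1.5-fold and did not otherwise order them. Control library 1 lay in the middle at 26 of the 32 and 35 of the 50 members, and at 57.1% of the 2515 other genes. With control library 2 set to 0 and control library 3 to 1, its median place was 0.58 for the 32 genes (quartiles 0.42 and 0.63, range -0.51 to 56.9). For the 50 genes it was 0.58 as well (quartiles 0.32 and 0.80, range -3.07 to 10.6). The medians matched those of MeJA library 1, but the places of control library 1 were far more scattered. The place takes extreme values where control libraries 2 and 3 are nearly equal. Members were not chosen by a gap between these controls. Whether control library 1 is independent of the other controls was not tested. Control library 3 was below control library 2 at 19 of the 32 and 19 of the 50, against 48.3% of the 2515. At the 9 most abundant of the 32 genes, control library 3 was below control library 2 in 9 of 9, at 0.681 to 0.987 times its value, whereas MeJA library 3 was above MeJA library 2 in all of them by the rule. These 9 were singled out after their values were seen. The within-group coefficient of variation had a median of 47.6% under MeJA and 11.3% in controls for the 32 genes, and 41.6% and 7.79% for the 50. In the 2515 other genes it was 7.19% under MeJA and 4.21% in controls.

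Genes that the assembler places in the same graph component share part of their sequence. The 82 members lay in 79 of 27180 components, and 3 components held 2 members each, both of the same direction. In the first of these, the members at ranks 8 and 14 of the 32 had 1251, 587 and 1618 TPM and 539, 159 and 838 TPM in MeJA libraries 1, 2 and 3. Their controls were 578, 624 and 497 TPM and 314, 265 and 329 TPM. The MeJA libraries stood in the same order in both genes, as they did in all members of this direction, so nothing is read from it. The controls stood in different orders. The other such components held ranks 17 and 32 of the 32, and ranks 24 and 38 of the 50.

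Other genes of these components that are not members, called partners here, were not chosen by the rule, although reads may have been shared between them and the members. Partners that averaged 5 TPM or more across all 6 libraries leaned towards MeJA library 3 in 15 of 24 (62.5%) for the 32 genes, where 35.2% of the 21097 other genes at this level did. They leaned towards MeJA library 2 in 40 of 55 (72.7%) for the 50 genes, where 64.6% of other genes did. Under the size factors these shares were 83.3%, beside 59.4% of other genes, and 49.1%, beside 40.6%. The share thus moved with the scaling, and so did that of other genes. The 24 partners came from only 13 components and the 55 from 31, so they are not separate observations. The excess over other genes was not tested.

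**Figure D5:**
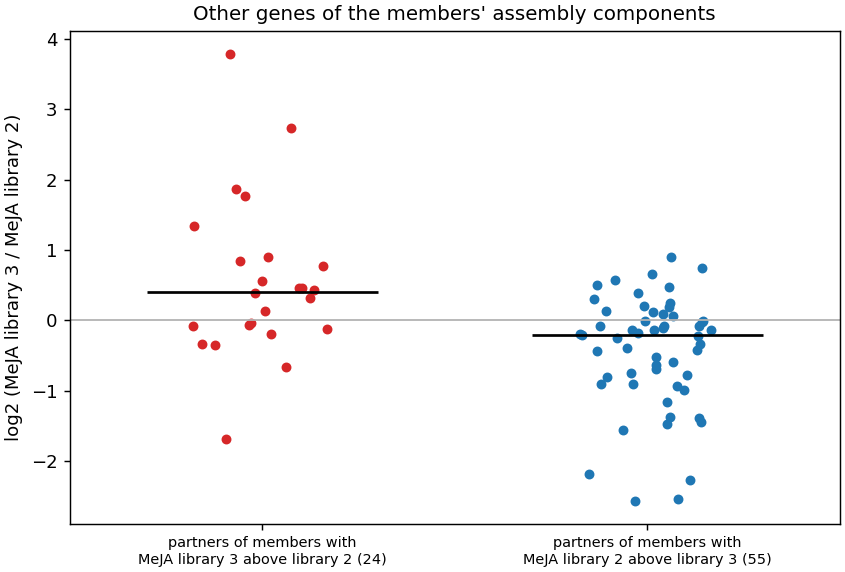
Log2 ratio of MeJA library 3 to MeJA library 2 at partners of the 32 genes (left, 24 partners) and of the 50 genes (right, 55 partners), with bars at the medians, 0.41 and -0.21. Points above 0 are higher in library 3, and most partners at least 2-fold apart lie on the side of their member.

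Of the 24 partners of the 32 genes, 6 were at least 2-fold apart between MeJA libraries 2 and 3 as deposited. In 5 of them library 3 was the higher. The share of all genes at this level that were at least 2-fold apart was not taken, so nothing is read from this count. The most abundant, a partner of the member at rank 7, had 4461, 1705 and 6245 TPM in the MeJA libraries, against 627, 732 and 618 TPM in the controls. A partner of the member at rank 9 had the largest ratio, 13.9, with 70.0, 7.97 and 110 TPM under MeJA against 2.31, 0.18 and 1.07 TPM in controls. Both had the same order of MeJA libraries as the members, with every MeJA library above every control. The exception, a partner of the member at rank 6, had 34.2, 53.1 and 16.4 TPM under MeJA against 89.0, 90.6 and 94.1 TPM in controls, and library 3 was the lowest there.

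Of the 55 partners of the 50 genes, 10 were at least 2-fold apart as deposited, and 10 of 10 had MeJA library 2 the higher. One of them had 0, 1.93 and 0.33 TPM under MeJA against 58.47, 64.45 and 48.18 TPM in controls. It reached the level of 5 TPM through its controls alone. Another had only 2.78 TPM in library 3. Here too the share of all genes at this level was not taken, so nothing is read from the count. The most abundant was a partner of TRINITY_DN19902_c0_g2 and had 182, 331 and 68.6 TPM in the MeJA libraries, against 616, 481 and 775 TPM in the controls. The order of all 6 libraries was the same as in the member, controls included. Fragments of the same transcript can be listed as separate genes, so partners cannot be counted as further genes with this pattern.

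The values next to each limit show how the choice of members falls. The smallest ratio between MeJA libraries 2 and 3 inside the rule was 2.007 and the largest outside it, among genes that met the other conditions, was 1.998. For the MeJA mean these were 50.3 and 49.3 TPM, and for the spread of the controls 1.49 and 1.51. The lowest MeJA value over the highest control was 1.998 just inside and 2.05 just outside, and the highest MeJA value over the lowest control was 0.523 and 0.473. No gap in the values set the members apart from the genes next to them.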

How the data were processed

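The authors deposited 1 value per assembled gene and library, for 60597 genes under the same identifiers. Per the file headers the columns name the library and no unit. The values the authors deposited were taken to be TPM, since every library added up to 1000000 within rounding. The identifiers have the form that Trinity writes, while the aligner, the quantifier and any filter were not given in the sources used here. Depth is unknown, since TPM does not keep it, which bars count models and counting intervals. In MeJA library 3, 45648 genes were at 1 TPM or more, against 49105 and 50458 in MeJA libraries 1 and 2 and 50800 to 51326 in controls. Equal values made up 0.815% of the listed genes in MeJA libraries 1 and 3, genes at 0 in both left out. They made up 0.678% in MeJA library 1 and control library 1, and 0.576% in control libraries 1 and 2. All other pairs were at 0.0969% to 0.271%, and why the pairs differ was not tested.

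The rule was applied to the values as deposited. MeJA and control were compared by limma (version 3.58.1, R version 4.3.3). The fit used log2(TPM + 1), a prior variance that follows the level, and no term but group. It was two-sided and took genes averaging 1 TPM or more, with Benjamini-Hochberg adjusted p under 0.05, and the code was tested on simulated data. A fold change on this scale understates the change of low genes. The named genes are, in each direction, the member with the highest MeJA mean and the member with the largest ratio between MeJA libraries 2 and 3. Members, classes and lists were chosen with earlier results of these data known. Alternatives were size factors, other limits of the rule, filters, pseudocount, no trend, a library block and libraries left out.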

Additional observations from a re-analysis of the deposited data

How the results depend on the processing

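The rule gave 32 genes with MeJA library 3 the higher and 50 with MeJA library 2 the higher. These became 59 and 26 under median-ratio size factors, 14 and 8 with a fold of 3, 96 and 173 with a fold of 1.5, 21 and 19 with a MeJA mean of 100 TPM, 71 and 149 with 20 TPM, and 17 and 32 with a tighter limit on the control spread. With a control spread of 2 they became 49 and 65. Leaving out a control or MeJA library 1 gave 31 to 48 and 50 to 72 genes, and MeJA libraries 2 and 3 define the rule and could not be left out. Calls over the whole table were 10381, and 129 with libraries 2 and 3 of each group alone. Leaving out 1 library gave 4300 to 11820 calls, with the lowest count without control library 1. Calls among the 32 and the 50 were 14 and 16, beside 18.7% of all genes. Without the intensity trend they were 8 and 7, beside 13.1%. With libraries 2 and 3 of each group alone they were 0 and 0, beside 0.234%. In that fit 12 of the 32 and 14 of the 50 had an unadjusted limma p under 0.05, as did 10775 of all 55118 genes. Leaving out 1 library gave 1 to 31 calls in the 32 and 2 to 29 in the 50, beside 7.81% to 21.5% of all genes. With the library number as a replicate block, 5748 genes (10.4%) were called over the whole table, and 7 of the 32 and 11 of the 50. For numbers 1, 2 and 3, the correlation between deviations from the group means was 0.020, -0.013 and -0.007. With 3 libraries per group this cannot settle whether libraries of the same number share more than the number. Library 1 of each group correlated best with its own number, and libraries 2 and 3 did not. The share of partners on the side of their member moved to 83.3% (the 32) and 49.1% (the 50) under the size factors. For these the cause was not tested. The totals of calls stayed within 1.5 times under size factors, without a filter, with a minimum of 5 TPM and with 0.1 as pseudocount. By direction they did not, since lower calls over the whole table were 6966, but 3733 under size factors, and those of the 50 were 5, but 3 under size factors and 9 with a minimum of 5 TPM. Over 13 alternatives the log2 fold changes were 1.71 to 2.86 for TRINITY_DN13898_c0_g1, 2.07 to 3.63 for TRINITY_DN10406_c0_g1, -2.68 to -1.61 for TRINITY_DN19902_c0_g2 and -2.54 to -1.44 for TRINITY_DN18620_c2_g1. In this order, the genes were called (limma adjusted p under 0.05) in only 5, 2, 6 and 6 of the 13. With depth unknown, how much counting error adds to the spread of low members cannot be given.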
